A study of Arabidopsis thaliana with 9 samples.

Results

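The expansin genes of Arabidopsis thaliana were followed through whole rosettes of 3 genotypes. The group holds the alpha-expansins (EXPA), the beta-expansins (EXPB) and the expansin-like A and B genes (EXLA and EXLB), chosen by locus ID from the family's standard naming. Of 35 loci on the list, 34 had a row in the table of 32833 genes, and EXPA19 (AT3G29365) was not analysed here. Of the 34, 17 had enough counts to be tested, among 16434 genes tested in all.

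The study is about TINY, an AP2/ERF transcription factor, and how it acts on brassinosteroid-dependent growth and on drought. Whole rosettes were taken at the age of 4 weeks under long days (16 h light, 8 h dark), 3 libraries per genotype. TINYOE is the line whose genotype is given as BES1P::TINYOE, a construct whose promoter the labels do not spell out further. tiny124 is the line given as tiny1tiny2tiny4, and WT is the wild type, with no other allele or agent named for any group. In the authors' own comparison of tiny124 with WT, the names of both groups carry the term adultcont, which is not spelled out there. The number of transgenic lines is not stated, nor is it stated whether a replicate was 1 plant or several. The p-values below therefore cover variation among the 3 libraries of a genotype, which could be technical in part.

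Expansins are secreted proteins that loosen the plant cell wall without cutting its polymers. They act best when the wall is acidic, so they are the classical agents of acid growth, in which proton pumps at the plasma membrane acidify the wall and the cell then extends. Alpha-expansins are thought to act where cellulose and xyloglucan meet, and beta-expansins are related to the group 1 pollen allergens of grasses. Expansin-like proteins share the same pair of domains, but wall-loosening activity has not been established for them. Several alpha-expansin genes are known targets of brassinosteroid signalling.

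The libraries held between 4917868 and 6070778 counts. TINY itself (AT5G25810) stood at 5.39 ± 0.762 CPM in TINYOE, 0.706 ± 0.132 in tiny124 and 4.06 ± 0.45 in WT (CPM, a gene's tags scaled to a fixed library total corrected by TMM; mean ± SD, n = 3 each), so its own 3' tags did not set TINYOE apart from WT (adjusted p = 0.343, edgeR). These 3' tags are near the end of the native transcript, and which 3' end the transgene carries is not stated, so they do not check the overexpression. TINY was lower in tiny124 than in WT (log2 fold change -2.48, adjusted p = 0.00168), and TINY2 (AT5G11590), too low to be tested, had 2, 1 and 0 counts in TINYOE, 1, 0 and 0 in tiny124 and 5, 7 and 11 in WT. The 5 leaf markers, RBCS1A and LHCB2.1 among them, were abundant and summed to between 32244 and 41289 CPM in TINYOE, 42126 and 52175 in tiny124 and 43719 and 52414 in WT. The 8 root markers summed to between 11.2 and 13.8 CPM in TINYOE, 9.76 and 11.5 in tiny124 and 4.94 and 12.3 in WT, and PHT1;2 had 0 counts in all 9 libraries. SCR held the largest part of these sums, at 9.62 ± 1.1 CPM in TINYOE, 5.77 ± 0.89 in tiny124 and 6.46 ± 2.82 in WT. In TINYOE 2 of the 8 had 0 counts throughout, in tiny124 2 and in WT 5.

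Promoters of 4 genes are shown because these genes had the largest rise (EXPB3), the largest fall (EXLB1) or values beyond the WT range on opposite sides in the 2 lines (EXPA1 and EXLA1), a choice made after their values were seen. Each is the stretch of 300 bases that ends just before the annotated start of the gene, read 5′ to 3′ on the gene's strand, from the RefSeq genome and annotation of TAIR10.1. Capitals mark CCGAC (the core of the dehydration-responsive element, which TINY and other DREB factors are known to bind), CGTGTG and CGTGCG (brassinosteroid response elements) and CANNTG (E-boxes), searched on both strands. CACGTG, the G-box, and GCCGCC, the GCC box bound by ERF factors, were also searched.
EXPB3, chr4:14002125-14002424, minus strand: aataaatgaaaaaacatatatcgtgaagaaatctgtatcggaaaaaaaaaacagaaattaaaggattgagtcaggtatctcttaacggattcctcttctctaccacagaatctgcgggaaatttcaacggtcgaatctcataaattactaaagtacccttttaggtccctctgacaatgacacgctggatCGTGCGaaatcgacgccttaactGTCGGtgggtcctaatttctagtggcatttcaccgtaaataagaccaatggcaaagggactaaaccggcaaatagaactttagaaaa
EXPA1, chr1:26141426-26141725, plus strand: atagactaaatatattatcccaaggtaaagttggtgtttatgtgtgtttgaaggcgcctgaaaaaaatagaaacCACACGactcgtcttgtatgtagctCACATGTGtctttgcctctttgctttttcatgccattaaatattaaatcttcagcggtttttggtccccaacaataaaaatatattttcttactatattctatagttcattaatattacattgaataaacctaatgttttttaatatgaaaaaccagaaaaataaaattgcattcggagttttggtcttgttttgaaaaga
EXLA1, chr3:16895866-16896165, plus strand: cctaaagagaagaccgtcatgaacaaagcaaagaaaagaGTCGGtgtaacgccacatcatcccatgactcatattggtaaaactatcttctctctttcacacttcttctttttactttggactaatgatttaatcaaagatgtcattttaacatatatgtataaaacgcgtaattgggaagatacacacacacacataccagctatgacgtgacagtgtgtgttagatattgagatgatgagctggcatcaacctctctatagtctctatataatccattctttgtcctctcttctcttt
EXLB1, chr4:9583291-9583590, minus strand: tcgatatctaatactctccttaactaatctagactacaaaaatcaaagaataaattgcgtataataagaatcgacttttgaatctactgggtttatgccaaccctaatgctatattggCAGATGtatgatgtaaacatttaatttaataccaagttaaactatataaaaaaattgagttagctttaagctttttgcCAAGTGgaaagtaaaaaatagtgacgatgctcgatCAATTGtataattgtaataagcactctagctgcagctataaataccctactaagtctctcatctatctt
The EXPB3 window held 1 CCGAC, between 83 and 87 bases before the start, and 1 CGTGCG, between 105 and 110 bases before it. The EXPA1 window held 1 CGTGTG and 2 overlapping E-boxes within the letters CACATGTG. The EXLA1 window held 1 CCGAC, between 257 and 261 bases before the start, and the EXLB1 window held 3 E-boxes. Over the tested members, CCGAC occurred in the windows of 2 of 17 genes, EXPB3 and EXLA1, and in 13.9% of the windows of 27443 protein-coding genes. CGTGTG occurred in 3 of 17 (EXPA1, EXPA6 and EXLA2) against 6.11% of all windows, CGTGCG in 1 of 17 (EXPB3) against 1.78%, and an E-box in 12 of 17 against 61.9%. GCCGCC and CACGTG occurred in 0 of the 17 windows, against 2.26% and 7.09% of all windows. An E-box can overlap the other motifs, and a G-box is always also an E-box. These are matches of letters in a short window, and binding was not measured.

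Expression of the family in WT rosettes was carried by few genes. The kit reads 1 fragment near the 3' end of each transcript, so CPM values were compared between genes without division by length. EXPA1 had the highest level, at 173 ± 39.6 CPM, followed by EXPA6 at 86.8 ± 7.58 and EXPB3 at 59.5 ± 15.8 (SD, n = 3 libraries each), and the libraries of these 3 genes did not overlap with those of the next gene in the order. EXPA5 (43.6 ± 3.15 CPM), EXPA4 (39.5 ± 9.57), EXPA8 (30.2 ± 11.2) and EXPA11 (27.9 ± 2.39) came next, each overlapping its neighbour. The lowest tested genes were EXPA16 (4.15 ± 1.6 CPM) and EXLA2 (2.47 ± 0.672).

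Of the 17 members that were not tested, 5 had 0 counts in all 9 libraries (EXPA23, EXPA25, EXPA26, EXPB4 and EXPB5), which allows up to 0.494 to 0.635 CPM in a library (3 counts; counting error only). Another 11 had between 1 and 6 counts over the 9 libraries together. Among them were EXPA7 and EXPA18, which are known for root hair growth, EXPA14 and EXPA17, known from roots, and EXPA2, known from germinating seeds. EXPA20 had 43 counts, with 12 in TINYOE, 18 in tiny124 and 13 in WT. EXPA21 to EXPA26 lie side by side on chromosome 5. In that cluster the last 500 bases of the annotated transcripts of EXPA23 and EXPA25 shared 77.8% of their runs of 50 bases, the length of a read, and those of EXPA22 and EXPA26 shared 36.8%. Counts of these 4 genes are therefore uncertain. None of the 17 tested genes shared such a run with an annotated transcript of another gene.

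**Figure D1:**
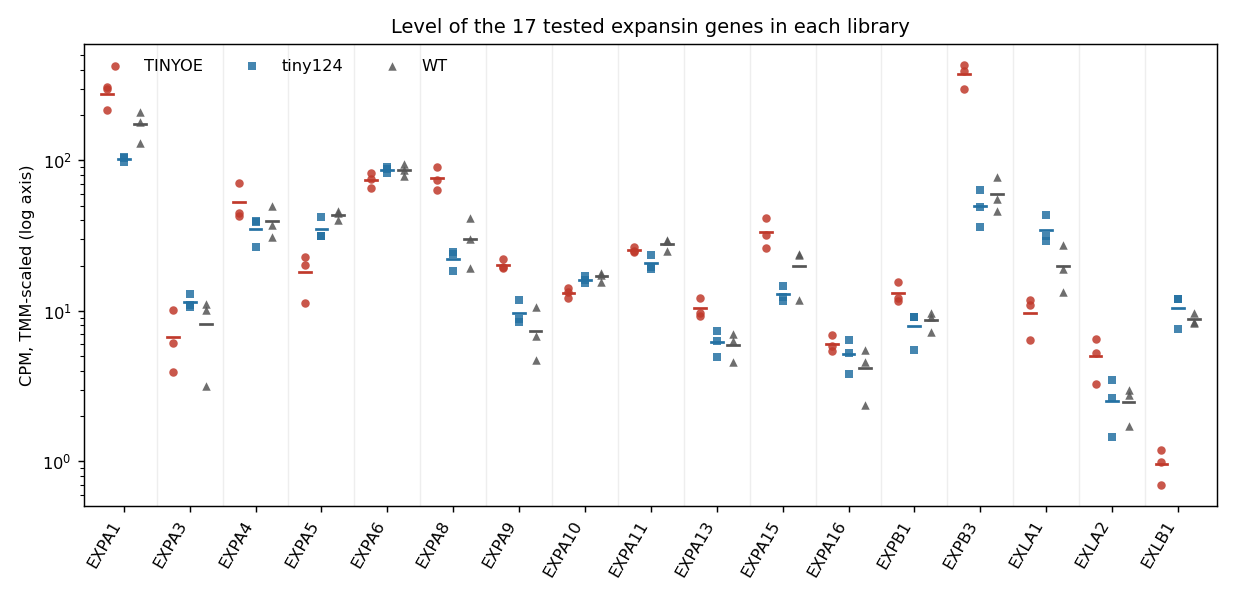
Level of each tested expansin gene in CPM (TMM-scaled, log axis) in the 3 TINYOE, 3 tiny124 and 3 WT libraries; points are libraries and short bars are means. EXPB3 lies between 299.5 and 430.4 CPM in TINYOE and between 36.1 and 77 CPM in the other genotypes, and EXLB1 is at or below 1.2 CPM in TINYOE alone.

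Rosettes of TINYOE were first set against WT, to see which expansin genes differ in the line labelled TINYOE. In all, 5 of the 17 tested members were higher in TINYOE (EXPA1, EXPA8, EXPA9, EXPA13 and EXPB3), where 8.15% of all genes tested were higher. The 3 members that fell were EXPA5, EXLA1 and EXLB1, where 7.44% of all genes tested were lower. The other 9 members did not pass the test. Called members made up 47.1% of those tested, against 15.6% of all genes tested. A call with at least a 2-fold change was made for 6 members (EXPA5, EXPA8, EXPA9, EXPB3, EXLA1 and EXLB1) and for 8.2% of all genes. The libraries of TINYOE and WT did not overlap in 12 of the 17 members and in 31.4% of all genes. The median log2 fold change was 0.56 over the tested members and 0.00 over all genes tested. The minimum for testing, 1.80 CPM in at least 3 libraries, was met in all 9 libraries by 15 members. EXLA2 met it in all 3 libraries of TINYOE alone, and EXLB1 in the tiny124 and WT libraries but in 0 of the TINYOE libraries.

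Among alpha-expansins, EXPA8 (AT2G40610), a gene induced by brassinosteroid, stood at 90.2, 74.1 and 63.7 CPM in TINYOE, against 19.2, 41.5 and 30.1 CPM in WT. It rose 2.52-fold (log2 fold change 1.33 ± 0.24, SE; adjusted p = 0.00136, edgeR's quasi-likelihood test with Benjamini-Hochberg adjustment over all genes tested, which gives each adjusted p below unless another is named). EXPA9 (AT5G02260) stood at 19.3, 22.1 and 19.5 CPM in TINYOE, against 4.75, 10.6 and 6.78 CPM in WT. Its rise was 2.77-fold (1.47 ± 0.25, adjusted p = 0.00103), and in both genes the lowest TINYOE library was above the highest WT library. EXPA1 (AT1G69530), the most abundant expansin of WT rosettes and known for a part in stomatal movement, stood at 309, 297 and 218 CPM in TINYOE, against 131, 209 and 180.4 CPM in WT. The groups were separated by a small margin, between TINYOE replicate 3 and WT replicate 2. The rise was 1.58-fold (0.66 ± 0.19, adjusted p = 0.025). EXPA13 (AT3G03220) stood at 9.22, 12.3 and 9.74 CPM in TINYOE and at 6.27, 6.99 and 4.58 CPM in WT, a rise of 1.75-fold (0.81 ± 0.25, adjusted p = 0.0357).

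EXPA5 (AT3G29030), an alpha-expansin known to act downstream of brassinosteroid signalling, went the other way from EXPA8. It stood at 11.4, 20.3 and 22.7 CPM in TINYOE, against 40.1, 46 and 44.9 CPM in WT, and fell 2.41-fold (-1.27 ± 0.23, adjusted p = 0.00147). All TINYOE libraries were below all WT libraries. EXPA15 (AT2G03090), a gene known from the shoot apex, stood at 31.9, 41.5 and 26.3 CPM in TINYOE, against 23.4, 11.9 and 24 CPM in WT. These libraries did not overlap, and the adjusted p of 0.0502 lay just above the threshold (0.75 ± 0.25). EXPA15 was called in 5 of 15 alternatives, by DESeq2 (0.0417), without a filter on low counts (0.00706), with a filter at 5 CPM (0.0471), without TINYOE replicate 3 (0.0457) and without WT replicate 1 (0.0354). Its log2 fold change was 0.49 without WT replicate 2.

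The remaining alpha-expansins differed less. EXPA6, second in level in WT, stood at 65, 75 and 82 CPM in TINYOE, against 94.4, 79.2 and 86.7 CPM in WT (-0.23, 95% interval -0.57 to 0.11, adjusted p = 0.353). EXPA11 stood at 24.5, 24.9 and 26.5 CPM in TINYOE, against 29, 29.4 and 25.1 CPM in WT (-0.14, interval -0.50 to 0.22, adjusted p = 0.626). EXPA10, known to promote the growth of leaves and petioles, stood at 13.3, 14.2 and 12.1 CPM in TINYOE and at 17.3, 15.7 and 18 CPM in WT. Its libraries did not overlap, and its interval of -0.74 to 0.02 included 0 (adjusted p = 0.188). The intervals of EXPA4, EXPA3 and EXPA16 were wider, and the libraries of both genotypes overlapped in each. EXPA4 stood at 43, 70.8 and 44.9 CPM in TINYOE and at 49.9, 31.1 and 37.4 CPM in WT (0.42, interval -0.08 to 0.92). EXPA3 stood at 6.09, 10.2 and 3.93 CPM in TINYOE and at 10.06, 3.18 and 11.2 CPM in WT (-0.29, interval -1.09 to 0.51). EXPA16 stood at 6.92, 5.43 and 5.81 CPM in TINYOE and at 4.56, 5.51 and 2.38 CPM in WT (0.56, interval -0.11 to 1.22).

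EXPB3 (AT4G28250), a beta-expansin, showed the largest rise of the family. It stood at 430.4, 392.5 and 299.5 CPM in TINYOE, against 55.1, 46.4 and 77 CPM in WT. Every TINYOE library lay far above every WT library. The rise was 6.28-fold (2.65 ± 0.24, 95% interval 2.15 to 3.15, adjusted p = 6.5e-06). The other tested beta-expansin, EXPB1, stood at 12.2, 11.6 and 15.5 CPM in TINYOE and at 9.11, 7.2 and 9.72 CPM in WT. Its libraries did not overlap, but the difference of 0.59 ± 0.24 on the log2 scale did not pass the test (adjusted p = 0.106, 95% interval 0.08 to 1.09).

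The expansin-like genes did not move as a block. EXLB1 (AT4G17030), the only expansin-like B gene on the list, stood at 0.988, 0.701 and 1.2 CPM in TINYOE, against 9.68, 8.47 and 8.25 CPM in WT. It had 6, 4 and 7 counts in the TINYOE libraries and 51, 40 and 45 in the WT libraries. The fall was 8.95-fold (-3.16 ± 0.33, adjusted p = 1.66e-05), the largest decrease of the family. EXLA1 (AT3G45970) stood at 6.42, 11.7 and 10.9 CPM in TINYOE, against 19, 27.3 and 13.4 CPM in WT, and fell 2.04-fold (-1.03 ± 0.28, adjusted p = 0.0204). Its paralogue EXLA2 (AT4G38400) stood at 3.29, 5.26 and 6.49 CPM in TINYOE and at 1.71, 2.96 and 2.75 CPM in WT, a difference of 1.01 ± 0.37 on the log2 scale that did not pass the test (adjusted p = 0.0764). EXLA1 overlaps AT3G45980 on the opposite strand, and whether the counting used strand is not given in the sources used here. AT3G45980 stood at 141, 167 and 136 CPM in TINYOE and at 152, 127 and 151 CPM in WT (log2 fold change 0.04, adjusted p = 0.875).

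**Figure D2:**
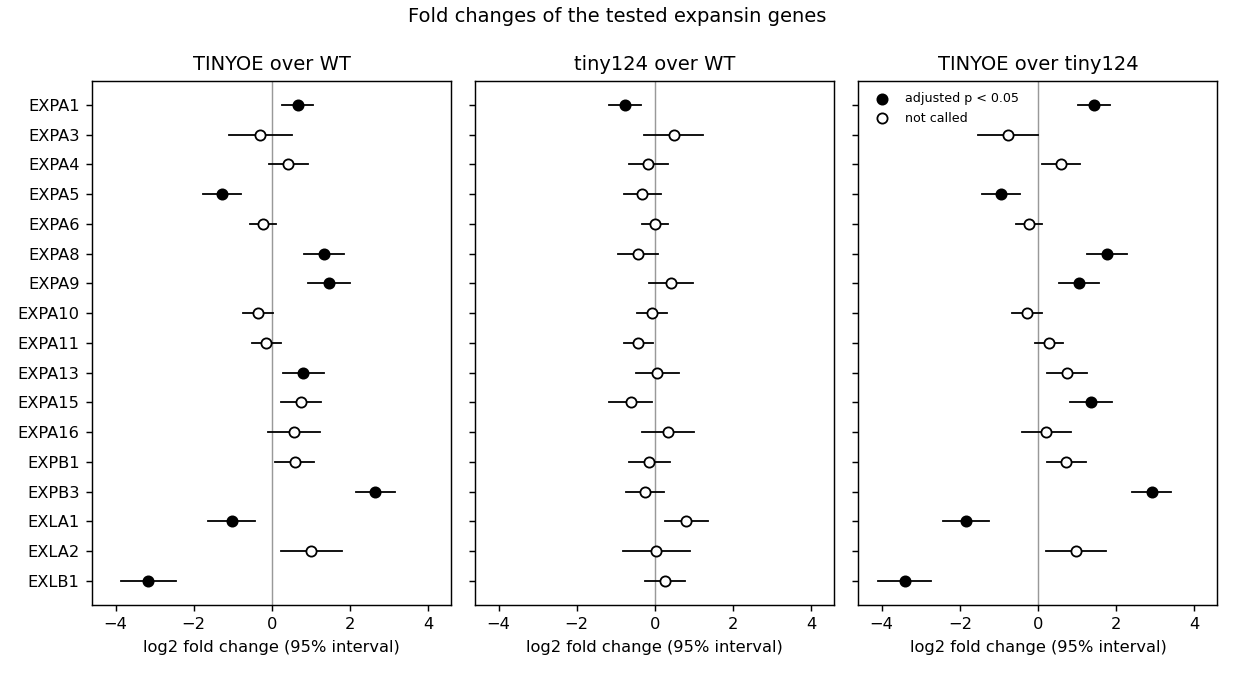
Log2 fold change of each tested expansin gene in the 3 comparisons with its 95% interval; filled points have an adjusted p under 0.05. TINYOE differs from both other genotypes in the same direction for EXPB3, EXPA1, EXPA8, EXPA9, EXPA5, EXLA1 and EXLB1, while EXPA1 is the 1 filled point in tiny124 over WT.

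Of these calls, 3 depended on single libraries or on the choice of fit. EXPB3, EXPA8, EXPA9, EXPA5 and EXLB1 were called under all 15 alternatives tried. EXPA1 was not called without TINYOE replicate 1 (adjusted p = 0.103) or 2 (0.0952), without WT replicate 1 (0.0845) or 3 (0.0645), or in a fit of the 6 libraries compared only (0.0525). EXPA13 was not called by DESeq2 (0.0572), in the fit of 6 libraries (0.0571), or without any TINYOE library (0.0514 to 0.138) or WT replicates 1 (0.0594) and 3 (0.148). EXLA1 was not called without TINYOE replicate 1 (0.0974) or WT replicate 2 (0.057). WT replicates 1 and 2 differed most among libraries of 1 genotype (a chi-square of 23.7 per degree of freedom, against at most 11.6 for the other pairs), and without WT replicate 2 the log2 fold change was 2.51 for EXPB3, 1.63 for EXPA8, 1.81 for EXPA9, 0.83 for EXPA1, -1.22 for EXPA5, -0.73 for EXLA1 and -3.18 for EXLB1. In the authors' deposited table, made without WT replicate 2, 5 members were higher and 2 lower (17.5% of the genes with an adjusted p there were called), and all 7 had the same direction as here. EXLA1 was not called there, at -0.736 with an adjusted p of 0.19 in the authors' deposited table.

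Of 7 tested flower markers 2 were higher in TINYOE than in WT, where 8.15% of all genes tested were, and the other 5 did not pass the test (adjusted p from 0.0509 for AP1 to 0.605 for SEP1). Of the 7, 3 met the minimum for testing in all 9 libraries, PI and SEP2 among them. AP1 met it in all 3 libraries of TINYOE alone, and AG and SEP1 also needed TINYOE libraries to enter the test. Each had its highest mean level in TINYOE, so a higher level there partly follows from this entry. The 9 flower and inflorescence markers summed to 40.01 to 80.5 CPM in TINYOE, 32.5 to 37.7 in tiny124 and 22.02 to 36.6 in WT, and no marker had 0 counts throughout a genotype. Those called were PI (0.96, adjusted p = 0.0282) and SEP2 (1.64, adjusted p = 0.00131). SHP1, too low to be tested, stood at 0.169 ± 0.171 CPM in TINYOE and 0.573 ± 0.497 CPM in WT. LFY, also too low to be tested, went the other way, at 2.77 ± 1.31 CPM in TINYOE and 0.899 ± 0.375 CPM in WT. Of 5 leaf markers 4 were lower in TINYOE than in WT, where 7.44% of all genes tested were lower. Their log2 fold changes ran from -0.68 (LHCB2.1, adjusted p = 0.0088) to -0.47 (CA1, adjusted p = 0.0466). LHCB1.1 did not pass the test (-0.30, adjusted p = 0.309). The part of either list in the expansin differences was not tested. In whole rosettes, a change in the share of a cell type and a change in RNA per cell cannot be told apart.

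The summed level of the family was higher in TINYOE, and most of the difference was EXPB3. The 34 genes together stood at 1015 ± 125 CPM in TINYOE, against 564 ± 34.0 CPM in WT (SD, n = 3 each). EXPB3 made up 69.7% of the difference of 451 CPM and EXPA1 22.4%. The 3 members that were lower changed by -43.5 CPM together. EXPB3 held 34.4% to 39.7% of all expansin tags in TINYOE libraries and 7.94% to 13.2% in WT libraries, and it ranked first in each TINYOE library, where EXPA1 ranked first in each WT library. Without EXPB3, the sum was 641 ± 64.6 CPM in TINYOE and 505 ± 33.8 CPM in WT. These sums were not tested.

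**Figure D3:**
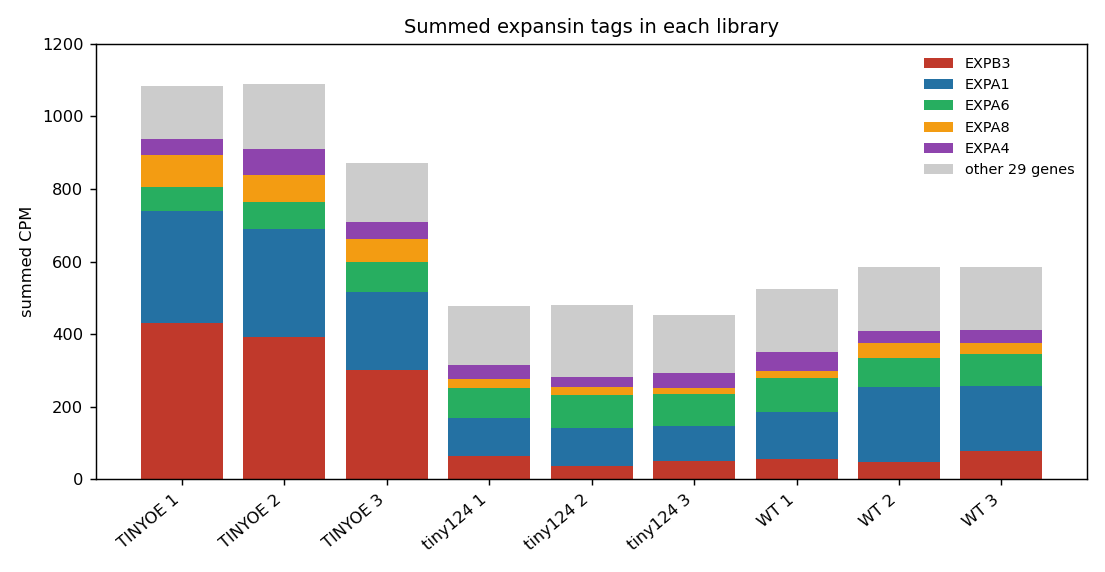
Summed CPM of the 34 expansin genes in each library, TINYOE left, tiny124 centre and WT right, stacked as EXPB3, EXPA1, EXPA6, EXPA8, EXPA4 and the other 29 genes. The TINYOE bars reach between 871 and 1091 CPM and hold a large EXPB3 block, while tiny124 bars lie between 454 and 481 CPM and WT bars between 525 and 584 CPM.

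In tiny124, few expansin genes were set apart from WT, as was so for all genes tested. EXPA1 was the 1 member called (5.88% of those tested), where 2.5% of all genes tested were called. It was lower in tiny124, as were 0.755% of all genes, and 0 members were higher by edgeR or by DESeq2, against 1.75% of all genes. At an unadjusted p under 0.05 in edgeR, 1 member was higher (EXLA1) and 3 were lower (EXPA1, EXPA11 and EXPA15). Libraries of tiny124 and WT did not overlap in 3 of the 17 members (EXPA1, EXPA11 and EXLA1) and in 15.8% of all genes. No member was called with at least a 2-fold change, against 1.64% of all genes. EXPA1 stood at 104, 105 and 97 CPM in tiny124, against 131, 209 and 180.4 CPM in WT. The tiny124 libraries lay close together and below every WT library. The fall was 1.70-fold (-0.77 ± 0.19, adjusted p = 0.0426). It was not called with the replicate number as a block (adjusted p = 0.0763), in the fit of 6 libraries (0.073), or without WT replicate 2 (0.102), WT replicate 3 (0.141), any tiny124 library (0.139 to 0.167) or TINYOE replicate 1 (0.0524) or 2 (0.0735). In the authors' deposited table it was at -0.611 with an adjusted p of 0.251, and 0 members were called there, where 2.93% of genes with an adjusted p were.

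EXLA1 stood at 31.6, 43.3 and 29.1 CPM in tiny124, above 19, 27.3 and 13.4 CPM in WT in every library. The difference of 0.81 ± 0.26 on the log2 scale did not pass the test (adjusted p = 0.154). It passed without WT replicate 2 (1.11, adjusted p = 0.0214) and without a filter on low counts (adjusted p = 0.00989). AT3G45980, which overlaps EXLA1, stood at 143, 139 and 135 CPM in tiny124 and at 152, 127 and 151 CPM in WT. EXPA11 stood at 19.6, 23.6 and 19.1 CPM in tiny124 and at 29, 29.4 and 25.1 CPM in WT, and EXPA15 at 11.7, 12.4 and 14.7 CPM in tiny124 and at 23.4, 11.9 and 24 CPM in WT. Neither passed the test (adjusted p = 0.319 for EXPA11 and 0.336 for EXPA15), and EXPA15 did without WT replicate 2 (-0.87, adjusted p = 0.038). That library was the lowest WT library for EXPA15 and the highest for EXLA1.

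The tiny124 and WT libraries overlapped for EXPB3 and EXLB1, the extremes in TINYOE. EXPB3 stood at 64, 36.1 and 49 CPM in tiny124, against 55.1, 46.4 and 77 CPM in WT (-0.26, 95% interval -0.75 to 0.23). EXLB1 stood at 7.53, 11.9 and 12 CPM in tiny124, against 9.68, 8.47 and 8.25 CPM in WT (0.25, interval -0.25 to 0.76). The genes that rose or fell 2-fold or more in TINYOE among the alpha-expansins also overlapped WT in tiny124. EXPA8 stood at 24.5, 23.8 and 18.5 CPM in tiny124, against 19.2, 41.5 and 30.1 CPM in WT (-0.44, interval -0.96 to 0.08). EXPA5 stood at 31.3, 41.8 and 31.6 CPM in tiny124, against 40.1, 46 and 44.9 CPM in WT (-0.32, interval -0.79 to 0.15). EXPA9 stood at 8.47, 11.7 and 8.9 CPM in tiny124, against 4.75, 10.6 and 6.78 CPM in WT (0.41, interval -0.15 to 0.97). None of these 5 genes was called in tiny124 (adjusted p from 0.546 for EXPA8 to 0.78 for EXLB1). EXPA6 stood at 82.5, 90.5 and 87.7 CPM in tiny124 and at 94.4, 79.2 and 86.7 CPM in WT, with an interval of -0.33 to 0.34.

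The remaining members overlapped between tiny124 and WT as well. EXPA3 stood at 13, 10.6 and 10.9 CPM in tiny124, against 10.06, 3.18 and 11.2 CPM in WT, and EXPA4 at 39.5, 26.6 and 39.2 CPM in tiny124, against 49.9, 31.1 and 37.4 CPM in WT. EXPA10 stood at 16, 17 and 15.3 CPM in tiny124, against 17.3, 15.7 and 18 CPM in WT, and EXPA13 at 7.34, 6.28 and 4.9 CPM in tiny124, against 6.27, 6.99 and 4.58 CPM in WT. These 4 genes lay within or close to the WT range. EXPA16 stood at 5.27, 6.45 and 3.81 CPM in tiny124, against 4.56, 5.51 and 2.38 CPM in WT. EXPB1 stood at 5.46, 9.1 and 9.08 CPM in tiny124, against 9.11, 7.2 and 9.72 CPM in WT. Of these 6 genes and EXLA2, the log2 fold changes ran from -0.17 (EXPA4) to 0.48 (EXPA3) and the adjusted p from 0.702 to 0.986. The summed level of the family was 470 ± 14.6 CPM in tiny124 and 564 ± 34.0 CPM in WT. The median log2 fold change was -0.08 over the tested members and -0.01 over all genes tested.

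The lines were also compared directly, TINYOE against tiny124, which tests whether the lines differ. The comparisons of each line with WT share the WT libraries, so their values were only set side by side. Of the 17 members 8 were called, against 9.85% of all genes tested, 7 of them with at least a 2-fold change, against 5.89%. Libraries did not overlap in 15 members and in 30.8% of all genes. In this comparison 5 members were higher in TINYOE (EXPA1, EXPA8, EXPA9, EXPA15 and EXPB3), where 5.12% of all genes tested were higher, and 3 were lower (EXPA5, EXLA1 and EXLB1), where 4.73% were lower. EXPB3 was 7.53-fold higher in TINYOE than in tiny124 (2.91 ± 0.24, adjusted p = 2.45e-06), and EXLB1 was 10.7-fold lower (-3.42 ± 0.32, adjusted p = 8.17e-06). EXPA8 differed 3.41-fold (1.77 ± 0.24, adjusted p = 0.000199) and EXPA1 2.69-fold (1.43 ± 0.19, adjusted p = 0.000172). For EXPA1 the TINYOE libraries were above and the tiny124 libraries below all WT libraries. EXLA1 showed the opposite order, with tiny124 highest, and was 3.58-fold lower in TINYOE than in tiny124 (-1.84 ± 0.28, adjusted p = 0.000413).

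EXPA15, which missed the threshold against WT, was 2.57-fold higher in TINYOE than in tiny124 (1.36 ± 0.25, adjusted p = 0.00231). EXPA9 was 2.08-fold higher (1.06 ± 0.24, adjusted p = 0.01), and not called without tiny124 replicate 1 (0.0583). EXPA5 was 1.93-fold lower (-0.95 ± 0.23, adjusted p = 0.0139), and not called without TINYOE replicate 1 (0.0611) or tiny124 replicate 2 (0.0707). EXPB1 (0.73, adjusted p = 0.0668) and EXPA13 (0.75, adjusted p = 0.0646) did not pass, and each did without WT replicate 1 (0.049 for EXPB1 and 0.0493 for EXPA13) or WT replicate 2 (0.0423 for EXPB1 and 0.0439 for EXPA13) in the shared fit. EXPA3, EXPA4, EXPA6, EXPA10, EXPA11, EXPA16 and EXLA2 did not pass either, with log2 fold changes from -0.77 (EXPA3) to 0.97 (EXLA2). Without a filter on low counts, EXPA3 (adjusted p = 0.0367), EXPA4 (0.0436) and EXPB1 (0.0457) were called, and in the fit of 6 libraries EXPA13 (0.0374) and EXPB1 (0.0407).

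**Figure D4:**
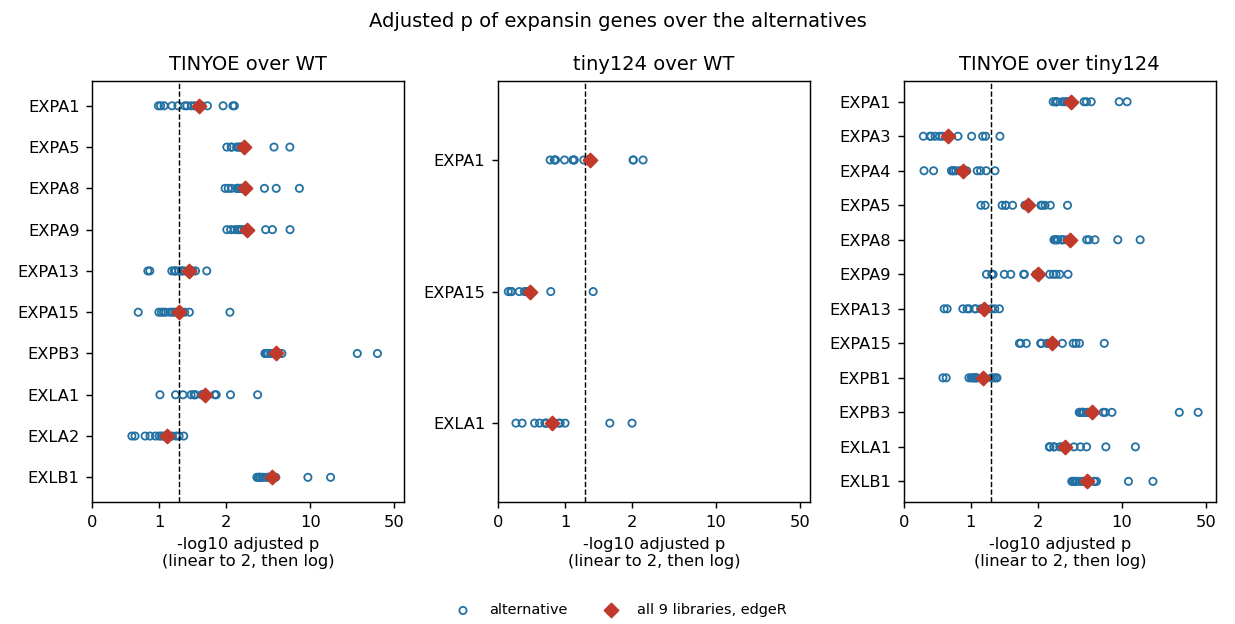
Adjusted p of each member called under at least 1 setting, as -log10 (linear to 2, then log), for the fit of all 9 libraries (diamonds) and for the alternatives (circles); the dashed line is 0.05. EXPB3 and EXLB1 stay right of the line in both comparisons with TINYOE, and EXPA1 in tiny124 over WT sits on both sides of it.

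Other wall-loosening genes were read in the same fit, from lists of the xyloglucan-modifying XTH enzymes, the AHA proton pumps that acidify the wall, and the clade D PP2C phosphatases that inactivate those pumps. Of the 21 XTH genes tested, 14 met the minimum in all 9 libraries, and 6 met it in all 3 libraries of a single genotype (XTH3, XTH18, XTH19, XTH20, XTH23 and XTH31). XTH20 was tested on its TINYOE libraries alone, having 0 counts in the others, so its difference follows from how it entered the test. XTH19 needed its WT libraries to enter the test, and XTH18 and XTH23 needed their tiny124 libraries. Each had its highest mean level there, so a lower level in TINYOE partly follows from this entry. In TINYOE against WT, 6 of the 21 rose, XTH20 included, and 5 fell, XTH19 included. Over all genes tested, 8.15% were higher and 7.44% lower, and the median log2 fold change of the XTH genes was 0.20. The 3 largest changes were all rises. XTH31 rose to 17.6 ± 6.12 CPM in TINYOE, against 3.06 ± 1.44 CPM in WT. XTH22 rose to 69.8 ± 14.0 CPM in TINYOE, against 16.9 ± 7.86 CPM in WT. XTH20 was at 25.5 ± 4.02 CPM in TINYOE and at 0 counts in all WT libraries. Besides XTH19, those that fell were XTH6, XTH7, XTH16 and XTH24. XTH7 stood at 156 ± 19.0 CPM in TINYOE and 375 ± 48.2 CPM in WT, and XTH6 at 149 ± 19.5 CPM in TINYOE and 310 ± 28.3 CPM in WT. The XTH genes summed to 920 to 996 CPM in TINYOE and 1263 to 1351 CPM in WT. Among 6 tested proton pump genes 2 fell and 0 rose by edgeR, by DESeq2 or at an unadjusted p under 0.05. AHA2, the main pump of roots and shoots together with AHA1, stood at 101 ± 12.9 CPM in TINYOE and 286 ± 113 CPM in WT (-1.50, adjusted p = 0.000575), and AHA11 at 21.2 ± 2.69 CPM in TINYOE and 31.8 ± 1.45 CPM in WT (-0.58, adjusted p = 0.0331). Of 8 tested phosphatase genes 1 fell, AT4G38520 (PP2C.D5; -0.96, adjusted p = 0.0112), and 0 rose by any of the 3 counts.

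In tiny124 against WT, 3 of 21 XTH genes rose and 0 fell by edgeR or DESeq2 (2 at an unadjusted p under 0.05), where 1.75% of all genes tested were higher and 0.755% lower, with a median of 0.06. Those that rose were XTH22 (83.1 ± 12.6 CPM in tiny124, against 16.9 ± 7.86 CPM in WT), XTH30 (12.9 ± 3.91 in tiny124, against 4.94 ± 0.628 in WT) and XTH27 (141 ± 15.7 in tiny124, against 83.9 ± 3.93 in WT). In tiny124 0 proton pump genes and 0 phosphatase genes were called by edgeR or DESeq2, and 1 of each was lower at an unadjusted p under 0.05, with AHA2, chosen after its values were seen, at 170 ± 38.2 CPM in tiny124 and 286 ± 113 CPM in WT (-0.75, adjusted p = 0.14). In TINYOE against tiny124, 4 XTH genes were higher, XTH20 included, and 7 lower, XTH18 and XTH23 included. Over all genes tested, 5.12% were higher and 4.73% lower, and the median log2 fold change of the XTH genes was -0.33. XTH20 had 0 counts in tiny124 too, XTH31 stood at 17.6 ± 6.12 CPM in TINYOE and 1.29 ± 0.902 in tiny124, and XTH23 was lower in TINYOE (-1.84, adjusted p = 0.00628). XTH18 and XTH23 entered the test through their tiny124 libraries, so these 2 differences partly follow from how they entered. In the same comparison AHA11 was lower (-0.66, adjusted p = 0.0228), and 2 phosphatase genes were higher, AT5G02760 (PP2C.D1; 1.20) and AT5G06750 (PP2C.D9; 1.16).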

How the data were processed

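Counts of 3' tags in 9 libraries (TINYOE, tiny124 and WT) were analysed. Per the series' design text, QuantSeq libraries were made from about 500 ng of RNA and read as single 50 nt reads, which were trimmed and mapped to TAIR10 with the BlueBee Lexogen QuantSeq pipeline, version 2.2.2. Sources used here do not name its aligner or gene models. The authors deposited these counts as raw whole numbers. The authors also deposited DESeq2 tables, per the submitters' processing notes, for TINYOE and tiny124 against WT without WT replicate 2. Per the file headers, these hold normalized counts rounded to whole numbers, treated as a score and not used, with the linear ratio of the groups, the same as log2, and p-values before and after adjustment; the deposited log2 values and p-values were only set beside the present ones.

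Counts were scaled by TMM, filtered with filterByExpr and tested with the quasi-likelihood method of edgeR 4.0.16 (on limma 3.58.1 and R 4.3.3). One model of genotype covered the 9 libraries and left 6 residual degrees of freedom. Tests were two-sided, with Benjamini-Hochberg adjustment over 16434 genes and a threshold of 0.05. Standard errors of log2 fold changes were derived from the F value of each gene's quasi-likelihood test. The 95% intervals used the total degrees of freedom of that test, which exceed the residual ones because they also draw on the other genes. The script was tested on simulated data. No library pair agreed within sampling noise. Alternatives were edgeR without a filter, edgeR scaled by DESeq2 size factors, the DESeq2 1.42.0 test, at least 5 CPM in at least 3 libraries, the 6 libraries compared only, the replicate block, and leaving out each library. Members with a mean of at least 5 CPM or a call were given library by library, and in the other wall-loosening lists up to 3 called genes with the largest changes were named. The XTH genes that fell in TINYOE against WT were named as well, a choice made after their values were seen. The members and all gene lists were chosen with earlier results of these data known.

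Promoter windows, motifs and shared runs of 50 bases came from RefSeq's TAIR10.1 genome and annotation, looked up by locus ID; the deposited files hold no coordinates.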

Additional observations from a re-analysis of the deposited data

Results flagged for a closer look

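EXPA1 is listed here because every TINYOE library was above and every tiny124 library below all WT libraries. Its log2 fold change in TINYOE over tiny124 was 1.43 (adjusted p = 0.000172, edgeR), with 0.66 in TINYOE over WT and -0.77 in tiny124 over WT, both from the same WT libraries.

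EXLA1 is listed because every TINYOE library was below and every tiny124 library above all WT libraries. Its log2 fold change in TINYOE over tiny124 was -1.84 (adjusted p = 0.000413, edgeR), with -1.03 in TINYOE over WT and 0.81 in tiny124 over WT, the last of which did not pass the test (adjusted p = 0.154). The cause was not tested for either gene.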

How the results depend on the processing

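Of the 8 members called in TINYOE over WT, 5 were called under all 15 alternatives, and of the 9 not called 2 were called under some. In TINYOE over tiny124 these numbers were 6 of 8 and 4 of 9, and in tiny124 over WT 0 of 1 and 2 of 16. No called member changed direction. EXLA2 was not tested under the filter of 5 CPM. Members called in TINYOE over WT numbered 8, and 5 to 8 with single libraries left out, the 5 without TINYOE replicate 1. In TINYOE over tiny124 they numbered 8, and 7 to 10. In tiny124 over WT the number was 1, against 2 without a filter or without WT replicate 2, and 0 in the fit of 6 libraries, with the replicate block, or without TINYOE replicate 1 or 2, any tiny124 library or WT replicate 3. The block changed no other call of a member. Over all genes, 2561 were called in TINYOE over WT, and 1604 to 4032 with single libraries left out (1676 without TINYOE replicate 1, 1661 without TINYOE replicate 2, 4032 without WT replicate 2 and 1604 without WT replicate 3). In TINYOE over tiny124 there were 1618 calls, and 946 to 2205 (1076 and 987 without TINYOE replicates 1 and 3, 1006 and 946 without tiny124 replicates 1 and 3). In tiny124 over WT there were 411 calls, 706 without a filter, and 167 to 526 with single libraries left out (167, 217 and 240 without tiny124 replicates 1, 2 and 3, and 206 without WT replicate 3). The replicate numbers are not said to pair the libraries, and the deviations of same-numbered libraries correlated at -0.31 to 0.36, with 2 of 9 pairs above 0.1. With the block, 2142 genes were called in TINYOE over WT, 1344 in TINYOE over tiny124 and 292 in tiny124 over WT.

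The sign of some members that were not called depended on the setting. With single libraries left out, EXPA3 ran from -0.709 to 0.0038 in TINYOE over WT. In tiny124 over WT the ranges were -0.310 to 0.043 for EXPA4, -0.054 to 0.0773 for EXPA6 (-0.0012 by DESeq2, -0.0011 with its size factors), -0.097 to 0.204 for EXPA13, -0.247 to 0.063 for EXPB1 and -0.264 to 0.319 for EXLA2. The cause of these changes was not tested. The 17 untested members had too few counts for differences to be detectable at this depth. Leaving out a library leaves 2 in that genotype, with the spread pooled over all 3.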

Other observations

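EXPA25 and EXPB4 had 0 counts in all 9 libraries, yet each is given a log2 fold change of -0.128 for TINYOE over WT and of -0.067 for tiny124 over WT in the authors' deposited tables, with no adjusted p. No value is given there for EXPA23, EXPA26 and EXPB5, which also had 0 counts throughout.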
